A study of Bos indicus x Bos taurus with 11 samples.

Results

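The genes described here encode 10 noncollagen proteins of the extracellular matrix: FN1, TNC, POSTN, THBS1, THBS2, SPARC, FBN1, FBN2, ELN and LOX. They were chosen by name, and each was 1 of the 27398 genes and loci in the table of total counts. The cells were primary skin fibroblasts from 11 bovine fetuses at day 105 of gestation, with 1 culture and 1 library per fetus. Every fetus was an F1 hybrid between the cattle breeds Brahman, of the subspecies Bos taurus indicus, and Angus, of Bos taurus taurus. Artificial insemination gave the 5 controls, 2 female and 3 male. The other group had large offspring syndrome (LOS): 6 fetuses, 3 female and 3 male, conceived with assisted reproductive technologies (ART) and heavier than the 97th centile of the controls. LOS is an overgrowth condition of ruminants that is compared with Beckwith-Wiedemann syndrome in humans. All of the cells had grown in medium with 10% fetal bovine serum, so the values describe cultured cells and not intact skin. ART fetuses of normal weight are not among the libraries analysed here, so the method of conception and the overgrowth cannot be told apart.

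Connective tissue cells secrete these proteins and organise them outside the cell. Fibrillins form microfibrils, elastin is laid down on them, and lysyl oxidase crosslinks elastin and collagen into an insoluble network. Fibronectin is an adhesive fiber that integrins pull into shape, whereas tenascin C, periostin, thrombospondins and SPARC are matricellular proteins, which modify how cells attach to the matrix more than they build it. Fibroblasts of growing skin are a main source of them.

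The libraries held 12084822 to 19297167 total counts, and the members took 3.81% ± 1.44 (SD, n = 5) of them in controls and 3.83% ± 0.467 (SD, n = 6) in LOS. All 10 members passed the filter on low counts, together with 16936 other genes and loci. The fibroblast marker list summed to between 55300 and 64400 CPM in the controls and between 52000 and 66800 CPM in LOS, where CPM are counts scaled to 1000000 per library. Listed markers of other cell types were low in sum for endothelium (at most 5.21 CPM), leukocytes (at most 1.13 CPM), skeletal muscle (at most 1.69 CPM) and keratinocytes (at most 24.7 CPM, of which CDH1 in LOS 1 gave 21.2 CPM). The melanocyte and Schwann cell list reached 151 CPM and the cartilage and bone list 121 CPM. The smooth muscle and pericyte list reached between 1700 and 5730 CPM per control and between 2570 and 6340 CPM per LOS library, nearly all of it ACTA2. The labels used here name no batch. In such bulk RNA, fewer cells of a kind and less RNA per cell cannot be told apart.

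None of the 10 genes passed the test of LOS against control cultures after adjustment over all genes, and their levels overlapped between the groups for every member. FBN2, a fibrillin of developing tissue, had the largest positive log2 fold change, 1.2, from a mean of 20.6 CPM ± 14.4 (SD, n = 5) in controls to 41.0 CPM ± 15.6 (SD, n = 6) in LOS. ELN, which encodes elastin, had the largest negative one, -1.52, from a mean of 88.8 CPM ± 49.3 (SD, n = 5) in controls to 41.8 CPM ± 49.6 (SD, n = 6) in LOS. SPARC and THBS1 had nearly equal means in both groups. The members varied widely from fetus to fetus, and 7 of 45 pairs of them correlated over the libraries: FN1 with TNC, POSTN and THBS1, TNC with POSTN, and SPARC with FBN1, FBN1 with LOX and LOX with ELN. Of these pairs, FN1 with THBS1 alone held with each library left out, and FN1 with POSTN rested on controls 2 and 4. The share of correlated pairs over all genes was not measured.

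**Figure D1:**
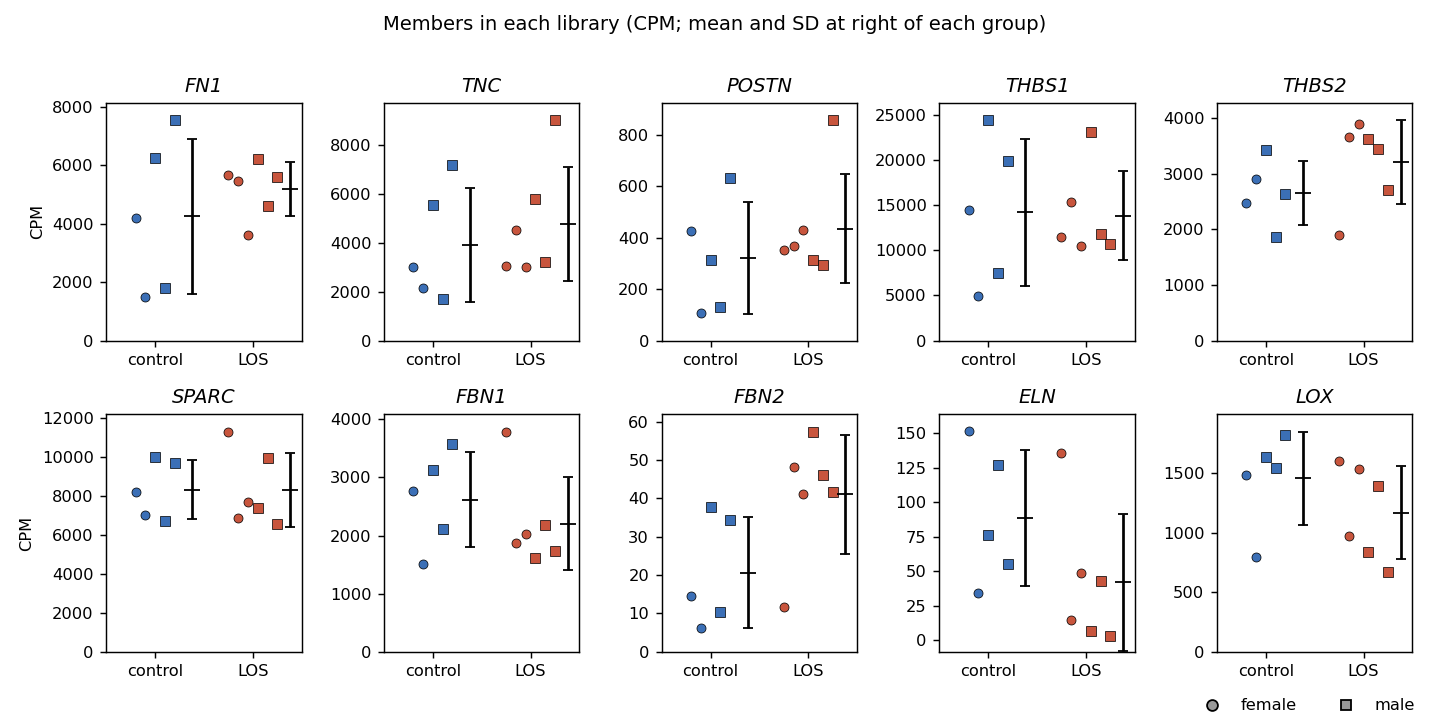
Level in CPM (linear axis) of the 10 members in each library, with controls in blue, LOS in red, circles for females and squares for males. The horizontal tick and bar beside each group are its mean and SD. For ELN the SD of LOS exceeds its mean, and in every panel the values of the groups overlap.

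The adhesive glycoproteins come first. FN1 (chr2:103361560-103430878, minus strand, build ARS-UCD1.2) encodes fibronectin, the fiber to which integrins bind. Controls 1 to 5 held 4191, 1479, 6236, 1816 and 7537 CPM of FN1. The LOS libraries ranged from 3603 to 6215 CPM with a median of 5535. The control values spanned the whole range of LOS and went beyond it on both sides, with controls 2 and 4 below every LOS library and controls 3 and 5 above. The log2 fold change, LOS minus control with sex as a term, was 0.39 ± 0.376 (SE; 95% interval -0.44 to 1.22), with an adjusted p of 0.932 in the edgeR quasi-likelihood test.

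TNC (chr8:104208978-104311440, minus strand) encodes tenascin C, a large matricellular protein of developing and healing tissue that interferes with adhesion to fibronectin. It stood at 2990, 2154, 5524, 1712 and 7155 CPM in controls 1 to 5. In LOS it ranged from 3003 to 8995 CPM, with a median of 3868. All 6 LOS libraries lay above the control median, but control 3 was above 4 of them and control 5 above all but LOS 6. LOS minus control was 0.38 ± 0.351 on the log2 scale (SE; 95% interval -0.39 to 1.15; edgeR adjusted p = 0.932).

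POSTN (chr12:24219116-24254425, plus strand) encodes periostin, which binds fibronectin and tenascin C and promotes collagen fiber assembly. Its control values were 424, 109, 315, 131 and 633 CPM. LOS libraries ranged from 292 to 856 CPM with a median of 359.8 CPM. LOS 6 was the highest library of all and controls 2 and 4 were the lowest, the same controls that had least FN1. The log2 fold change was 0.48 ± 0.451 (SE; interval -0.51 to 1.47; edgeR adjusted p = 0.932), and ran from 0.14 without LOS 6 to 0.84 without control 1.

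THBS1 (chr10:35209548-35225356, plus strand) encodes thrombospondin 1, which can activate latent TGF-beta and inhibits blood vessel growth. Controls 1 to 5 gave 14399, 4978.5, 24349.6, 7494 and 19853 CPM. LOS ranged from 10424 to 23111 CPM with a median of 11652. Here too controls 2 and 4 were below all LOS libraries, and LOS 4 alone reached the range of controls 3 and 5. With sex as a term the log2 fold change was 0.06 ± 0.369 (SE; interval -0.76 to 0.87; edgeR adjusted p = 0.99). Without the sex term it took the opposite sign, at -0.04.

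THBS2 (chr9:103154193-103185292, minus strand) encodes thrombospondin 2, a relative that takes part in collagen fiber formation in skin. Its control values of 2481, 2905, 3423, 1856 and 2635 CPM varied less than those of THBS1. LOS ranged from 1909 to 3894 CPM with a median of 3536. In LOS, 5 of 6 libraries lay above the control median, while LOS 1 lay near the lowest control. This came to a log2 fold change of 0.27 ± 0.208 (SE; interval -0.19 to 0.73; edgeR adjusted p = 0.932). As a share of the counts of both thrombospondin genes, THBS2 took 11.7% to 36.8% in controls and 13.6% to 27.2% in LOS, with control 2 at the top.

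SPARC (chr7:62874464-62897210, minus strand) encodes osteonectin, a collagen-binding matricellular protein. The controls held 8178, 7034, 9997, 6698 and 9699 CPM. LOS ranged from 6553 to 11285 CPM, with a median of 7548 CPM. The groups covered nearly the same range, and the log2 fold change was 0.00 ± 0.185 (SE; interval -0.41 to 0.40; edgeR adjusted p = 0.999). SPARC was also the steadiest member, with a residual SD of log2 CPM of 0.309 after terms for group and sex. The median over all genes tested was 0.307.

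The elastic fiber genes included the largest log2 fold changes of either sign, those of FBN2 and ELN. FBN1 (chr10:61654541-61919167, plus strand) encodes fibrillin 1, the main microfibril protein and the gene of Marfan syndrome. Controls 1 to 5 held 2767, 1506, 3119.6, 2120.5 and 3579 CPM. LOS ranged from 1615 to 3786 CPM with a median of 1953. In LOS, 5 libraries lay between 1615 and 2177 CPM, whereas LOS 1 was above every control. The log2 fold change was -0.27 ± 0.276 (SE; interval -0.87 to 0.34; edgeR adjusted p = 0.932), and -0.46 without LOS 1.

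FBN2 (chr7:25484714-25706699, plus strand) encodes fibrillin 2, which assembles into microfibrils mainly before birth. The controls held 14.5, 6.07, 37.8, 10.5 and 34.3 CPM. LOS ranged from 11.6 to 57.4 CPM with a median of 44.0. In LOS, 5 of 6 libraries were above every control, at 41.1 to 57.4 CPM, while LOS 1 lay between controls 4 and 1. The log2 fold change was 1.2 ± 0.441 (SE), with an interval of 0.23 to 2.17 before adjustment and an edgeR adjusted p = 0.932. Without LOS 1 it was 1.33, with an adjusted p of 0.349. FBN2 made up 0.522%, 0.402%, 1.2%, 0.492% and 0.950% of the counts of both fibrillin genes in controls 1 to 5. In LOS 2 to 6 this share was 1.98% to 3.43%, above all controls, whereas LOS 1 at 0.305% was below all controls.

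ELN (chr25:33277411-33310608, minus strand) encodes tropoelastin, the soluble precursor of elastin. Its control values were 152, 34.2, 76.1, 127 and 54.9 CPM. LOS ranged from 3.01 to 136 CPM with a median of 28.6. LOS 1 was second only to control 1, while LOS 2, LOS 4 and LOS 6 were below every control, at 14.4, 6.75 and 3.01 CPM. The log2 fold change was -1.52 ± 0.805 (SE; interval -3.29 to 0.25; edgeR adjusted p = 0.932). Without LOS 1 it was -2.01, with an adjusted p of 0.365. ELN had the widest spread of the members, with a residual SD of log2 CPM of 1.56 after terms for group and sex, at percentile 98.6 of the genes tested.

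LOX (chr7:31754930-31770393, plus strand) encodes lysyl oxidase, the enzyme that crosslinks elastin and collagen. The controls held 1489, 795, 1642, 1548 and 1821 CPM. LOS ranged from 668 to 1605 CPM with a median of 1186. In LOS, 5 of 6 libraries were below the control median, and LOS 6 alone was below the lowest control, control 2. On the log2 scale the difference was -0.33 ± 0.28 (SE; interval -0.95 to 0.28; edgeR adjusted p = 0.932).

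**Figure D2:**
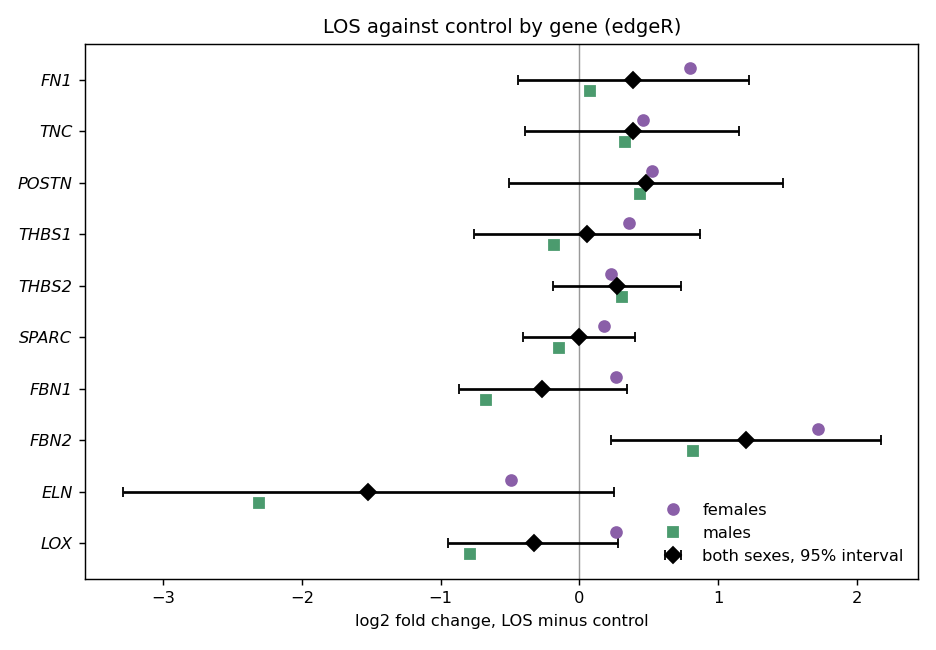
Log2 fold change of each member, LOS minus control, from edgeR (diamonds, with 95% intervals, sex as a term; linear axis of log2 values). Purple circles and green squares are the effects in females and in males from the fit with a group by sex interaction. The interval of FBN2 lies above 0 before any adjustment, and those of the other 9 members include 0.

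The counts of the members were set beside those of the whole table. The edgeR test called 0 members and 0 of 16946 genes (0%) at an adjusted p under 0.05. DESeq2 called 5 genes (0.0295%), none of them a member, and limma voom called 0. At an unadjusted p under 0.05, edgeR passed 1 member of 10, FBN2, against 752 genes (4.44%). Groups that did not overlap at all were seen in 39 genes (0.23%) and in none of the members. By sign, 6 members were higher in LOS and 4 lower, with a median log2 fold change of 0.16, against 49.8% of genes higher and a median of 0.00 over all genes tested. All 10 members had a spread, as the residual SD after terms for group and sex, above the median of all genes, 0.307. It ran from 0.309 for SPARC, which was barely above, to 1.56 for ELN on the log2 scale. Any difference of the LOS effect between the sexes is part of this spread.

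Libraries of 1 group did not behave alike, and LOS 1, a female, stood apart in the elastic fiber genes. It had the highest FBN1 and ELN, the lowest FBN2 and THBS2, and the highest SPARC of the LOS libraries. The 12 genes of the proliferation list, such as MKI67 and PCNA, summed to 474 CPM in LOS 1 and to 140 to 239 CPM in LOS 2 to 6. Controls summed to 367, 271.5, 189.6, 328 and 343 CPM. Of this list, 11 genes were lower in LOS and 1 higher, against 49.8% of all genes tested higher. Their median log2 fold change was -0.43, and edgeR called 0 of them. The part of proliferation in the FBN1, FBN2 and ELN values was not tested.

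Sex was the other label shared by both groups. TNC had the largest difference relative to its error, with a log2 fold change, male minus female, of 0.83 ± 0.355 (SE). It averaged 2572 CPM ± 591 (SD, n = 2) in control females, 4797 CPM ± 2794 (SD, n = 3) in control males, 3526 CPM ± 858 (SD, n = 3) in LOS females and 6005 CPM ± 2893 (SD, n = 3) in LOS males. FBN2 followed at 0.90 ± 0.438 (SE) and ELN at -1.14 ± 0.803 (SE). After adjustment all 10 members had a p of 0.999 in edgeR, which called 8 genes (0.0472%) by sex. TNC was the only member with an unadjusted p under 0.05, against 3.3% of genes.

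The effect of LOS was also compared between the sexes. In males, LOX averaged 1671 CPM ± 139 (SD, n = 3) in controls and 968 CPM ± 380 (SD, n = 3) in LOS, with every LOS male below every control male. In females the means were 1142 CPM ± 491 (SD, n = 2) and 1373 CPM ± 345 (SD, n = 3), and the groups overlapped. The difference between these effects, males minus females, was -1.05 ± 0.473 on the log2 scale (SE), and the interaction term of every member had an adjusted p of 0.921 or more in edgeR. FBN1 gave -0.94 ± 0.49 (SE), with LOS effects of 0.26 in females and -0.67 in males.

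ELN averaged 85.9 CPM ± 36.9 (SD, n = 3) in control males and 17.5 CPM ± 21.9 (SD, n = 3) in LOS males, without overlap. In females its means were 93.1 CPM ± 83.2 (SD, n = 2) and 66.2 CPM ± 62.5 (SD, n = 3). FBN2 was likewise separated in males, at 27.5 CPM ± 14.9 (SD, n = 3) in controls and 48.4 CPM ± 8.06 (SD, n = 3) in LOS. Neither difference between the sexes passed the test, with interaction terms of -1.82 ± 1.49 (SE) for ELN and -0.90 ± 0.853 (SE) for FBN2 in edgeR. Single libraries moved both: ELN from -3.67 without LOS 5 to -0.75 without LOS 1, and FBN2 from -1.65 without control 1 to -0.40 without control 2. The interaction called 0 of 17583 genes (0%) in edgeR and 6 in DESeq2, and an unadjusted p under 0.05 was found for 1 member, LOX, against 870 genes (4.95%). In males, 3 of 10 members had groups that did not overlap (FBN2 higher, ELN and LOX lower), against 13% of all genes (6.97% higher, 6.01% lower). In females TNC alone was separated, higher in LOS, against 17.5% of all genes (8.64% higher, 8.88% lower).

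The members were then compared for how they varied together over the 11 libraries. Of 45 pairs, 7 had a Pearson r of log2 CPM whose permutation p, adjusted over the 45, was under 0.05, and all 7 were positive. How often pairs drawn from all genes correlate as strongly was not measured, so the count is not shown to be particular to the members. FN1 and THBS1 had the highest r, 0.873 (adjusted p = 0.013; Spearman rho 0.827, adjusted permutation p = 0.0405). Both were lowest in controls 2 and 4 and high in controls 3 and 5 and LOS 4. FN1 and TNC followed with an r of 0.819 (adjusted permutation p = 0.0223; rho 0.836, adjusted p = 0.0405). Without the 2 libraries farthest from the median of FN1, controls 2 and 4, these values were 0.659 and 0.726.

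Periostin joined this set with weaker rank correlations. POSTN had an r of 0.815 with FN1 (adjusted permutation p = 0.0379), but a rho of 0.418 (adjusted permutation p = 0.433), and r was 0.173 without controls 2 and 4, so that the relation rests on those libraries. With TNC its r was 0.802 (adjusted permutation p = 0.0246; rho 0.564, adjusted p = 0.246) and 0.626 without control 5 and LOS 6. FBN2 had r values of 0.734 with FN1, 0.717 with TNC, 0.706 with THBS1 and 0.703 with THBS2, which missed the threshold with adjusted permutation p from 0.0639 to 0.0724.

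ACTA2, the actin of smooth muscle cells and myofibroblasts, was also low in controls 2 and 4. It stood at 3591, 1535, 5377, 1964 and 4309 CPM in controls 1 to 5. In LOS it ranged from 2419.98 to 5997 CPM, with LOS 4 the highest. Of the other markers on that list, CNN1 was lowest in control 4 at 17.7 CPM, then LOS 3 at 24.1 CPM and control 2 at 29.5 CPM. It was 95.2 and 115 CPM in controls 3 and 5, and highest in LOS 4 at 149.6 CPM. CSPG4 went another way, from 109 CPM in control 5 to 259 CPM in LOS 6. MYH11 was 0.740 to 14.7 CPM with its highest value in control 2, RGS5 at most 4.43 CPM and DES at most 0.282 CPM. The part of ACTA2- and CNN1-expressing cells in the FN1 and THBS1 levels was not tested.

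The second set joined the crosslinking enzyme to the fibers. ELN and LOX had an r of 0.850 (adjusted permutation p = 0.0229; rho 0.755, adjusted p = 0.071), and both were lowest in LOS 6, LOS 4, LOS 2 and control 2. FBN1 and LOX had an r of 0.819 (adjusted permutation p = 0.0246; rho 0.873, adjusted p = 0.0396), which was 0.814 without control 5 and LOS 1. SPARC and FBN1 had an r of 0.830 (adjusted permutation p = 0.0246; rho 0.773, adjusted p = 0.0664) and were both highest in LOS 1. Leaving out the 2 farthest libraries gave 0.650 for ELN and LOX and 0.693 for SPARC and FBN1.

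**Figure D3:**
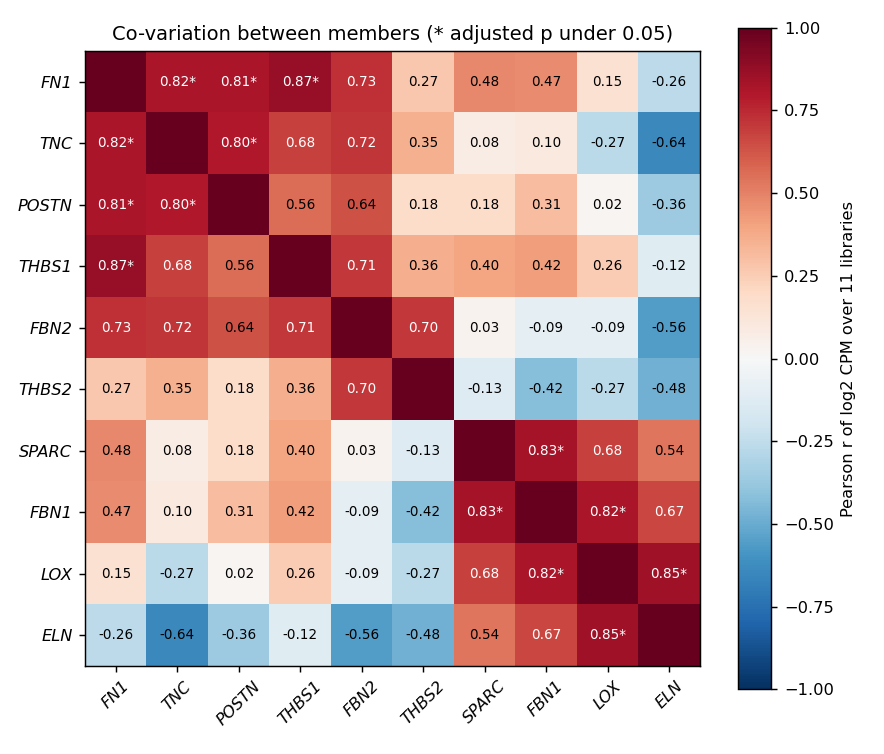
Pearson r of log2 CPM for every pair of members over the 11 libraries, on a color scale from -1 (blue) to 1 (red), with an asterisk where the permutation p adjusted over 45 pairs was under 0.05. The upper left block holds FN1, TNC, POSTN and THBS1, and the lower right block SPARC, FBN1, LOX and ELN. Values between the blocks run from 0.48 for FN1 and SPARC to -0.64 for TNC and ELN. The highest of them are close to the lowest within a block, 0.54 for SPARC and ELN.

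Within the 6 LOS libraries alone, TNC had strong negative correlations with LOX and ELN, but an r of 0.414 with FBN2 and -0.633 with FBN1. Its r was -0.98 with LOX (exact permutation p = 0.00278) and -0.949 with ELN (exact permutation p = 0.00417), while ELN and LOX gave 0.978 (exact permutation p = 0.00139). Each of these had a p of 0.0625 after adjustment over the 45 pairs, so none passed. FBN1 and FBN2, the sister fibrillins, had an r of -0.955 within LOS (exact permutation p = 0.0306, adjusted p = 0.223), where LOS 1 lay apart. Over all 11 libraries their r was -0.09.

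**Figure D4:**
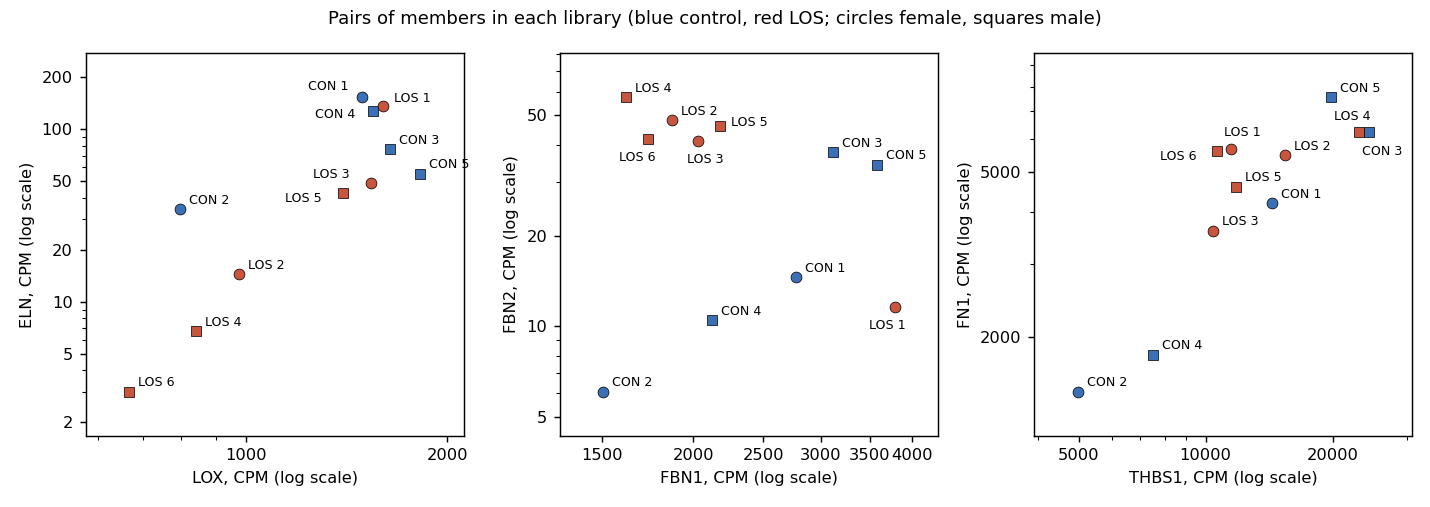
Levels of 3 pairs of members in each library (CPM, log axes), with controls in blue, LOS in red, circles for females and squares for males. For ELN and LOX, the LOS libraries lie near 1 line with LOS 6 at its foot (r of 0.978 within LOS). Controls do not follow it: among controls 1, 3, 4 and 5, control 5 had the most LOX and the least ELN. For FBN1 and FBN2, LOS 2 to 6 lie at the upper left and LOS 1 at the lower right, and for THBS1 and FN1, controls 2 and 4 lie below the other 9 libraries.

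Single libraries bore on the 7 pairs. Only FN1 with THBS1 passed the threshold with each of the 11 libraries left out in turn. The number of pairs that passed ranged from 2, without control 5, to 8, without LOS 3, and was 4 without control 2 and 4 without LOS 6. FN1 and TNC did not pass without control 5, at an r of 0.79 (adjusted permutation p = 0.0577). ELN and LOX did not pass without LOS 6, at 0.763 (adjusted permutation p = 0.0614). FBN1 and LOX did not pass without control 2 or control 5, at 0.78 and 0.788. SPARC with FBN1 failed without control 2, control 5, LOS 1 or LOS 6 (0.76 to 0.825), TNC with POSTN without controls 2, 4 or 5 or LOS 6 (0.722 to 0.778), and FN1 with POSTN without controls 2, 4 or 5 or LOS 5 or 6 (0.685 to 0.867).

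The genes whose pattern over the 11 libraries was most like each member were looked up among 9763 named genes with a mean of 5 CPM or more, by Pearson r of log2 CPM. They are a description, since the best of so many has a high r by selection. FN1 was closest to PCDH7 (0.964), PRSS23 (0.963) and SYTL2 (0.950), and TNC to TCAM1 (0.968), VGF (0.966) and PTDSS1 (0.955). POSTN was closest to CARS (0.944), PDIA4 (0.934) and FGF19 (0.930). THBS1 was closest to MYL6 (0.954), TMEM106A (0.949) and TPM4 (0.944), and THBS2 to RPL37A (0.970), SNHG12 (0.941) and RPL19 (0.935), of which the ribosomal protein genes have near-identical copies that make their counts uncertain. For SPARC they were PODN (0.950), FAM84B (0.940) and PRSS35 (0.935). For FBN1 they were P2RX4 (0.960), IL15RA (0.950) and MYCBP (0.933), and for FBN2 UBE4B (0.936), USP43 (0.931) and COL12A1 (0.930). ELN was closest to ADAMTS2 (0.973), NPDC1 (0.965) and SLC2A9 (0.965), and LOX to PLEKHA6 (0.949), ADAMTSL4 (0.945) and FGF7 (0.936).

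Because the parents were of different breeds, reads over sites where the breeds differ could be assigned to the maternal or paternal allele. The table of such reads held 6 members: FN1, TNC, POSTN, THBS2, FBN2 and ELN. No allelic value is given here for THBS1, SPARC, FBN1 and LOX. THBS2 was the member with unequal alleles, with a maternal share of 56.1% ± 5.86 (SD, n = 5) in controls and 57.0% ± 4.31 (SD, n = 6) in LOS. FN1 and TNC were close to equal, and no share passed the test of LOS against control. Breed and parent of origin cannot be told apart in this cross.

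For THBS2 the maternal share was 57.5%, 59.0%, 61.65%, 56.2% and 46.3% in controls 1 to 5, from 7144 to 14172 allelic reads each. Among LOS libraries it ranged from 49.5% to 62.5%. It was above 50% in 9 of 11 libraries, and in those 9 the exact (Clopper-Pearson) 95% interval excluded 50%. Control 5 lay below 50% with an interval of 45.2% to 47.4%, and the interval of LOS 4, 48.6% to 50.3%, included it. The log2 ratio of maternal to paternal reads was 0.39 ± 0.0611 (SE), with an adjusted p of 4.99e-05 in the edgeR test, which called 1167 of 5700 genes (20.5%). Without each library in turn the ratio stayed between 0.35 and 0.45.

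ELN leaned to the paternal side, at 41.8%, 30.8% and 47.5% maternal reads in controls 1 to 3. The log2 ratio was -0.53 ± 0.185 (SE; edgeR adjusted p = 0.0501), and the edgeR adjusted p was 0.047 over genes with a mean of 50 reads or more. The remaining controls had 0 allelic reads, although control 4 held 2579 total counts of ELN. LOS 1, 3 and 5 had only 10 to 17 allelic reads each, and LOS 2, 4 and 6 had 0, so the LOS shares of 20% to 53.3% have wide intervals, such as 26.6% to 78.7% in LOS 1.

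FN1 had a maternal share of 49.8% ± 1.6 (SD, n = 5) in controls and 50.8% ± 2.33 (SD, n = 6) in LOS, and a log2 ratio of 0.02 (edgeR adjusted p = 0.752). TNC had 48.6% ± 5.05 (SD, n = 5) and 49.3% ± 3.86 (SD, n = 6), with a log2 ratio of -0.06 (edgeR adjusted p = 0.512). The low value was control 4, at 39.6% of 8092 reads, whereas the other controls lay between 50.3% and 51.6%. POSTN varied most, from 28.3% in control 4 to 64.7% in control 5, with 94 to 1037 reads per library and a log2 ratio of -0.26 (edgeR adjusted p = 0.282). FBN2 had 3 to 142 reads per library and 43.5% ± 12.6 (SD, n = 5) in controls and 44.9% ± 8.50 (SD, n = 6) in LOS, with a log2 ratio of -0.13 (edgeR adjusted p = 0.578).

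Shares differed between libraries by more than counting error for the well covered members. Over the libraries, chi-square per degree of freedom was 92.4 for THBS2, 76.7 for TNC, 19.2 for POSTN and 8.29 for FN1. The 404 genes that averaged at least 1000 allelic reads had a median of 5.13 and all genes a median of 1.81. FBN2, with few reads, was at 1.82 and ELN at 2.36. Allelic reads are not independent molecules, so the intervals cover counting error only.

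**Figure D5:**
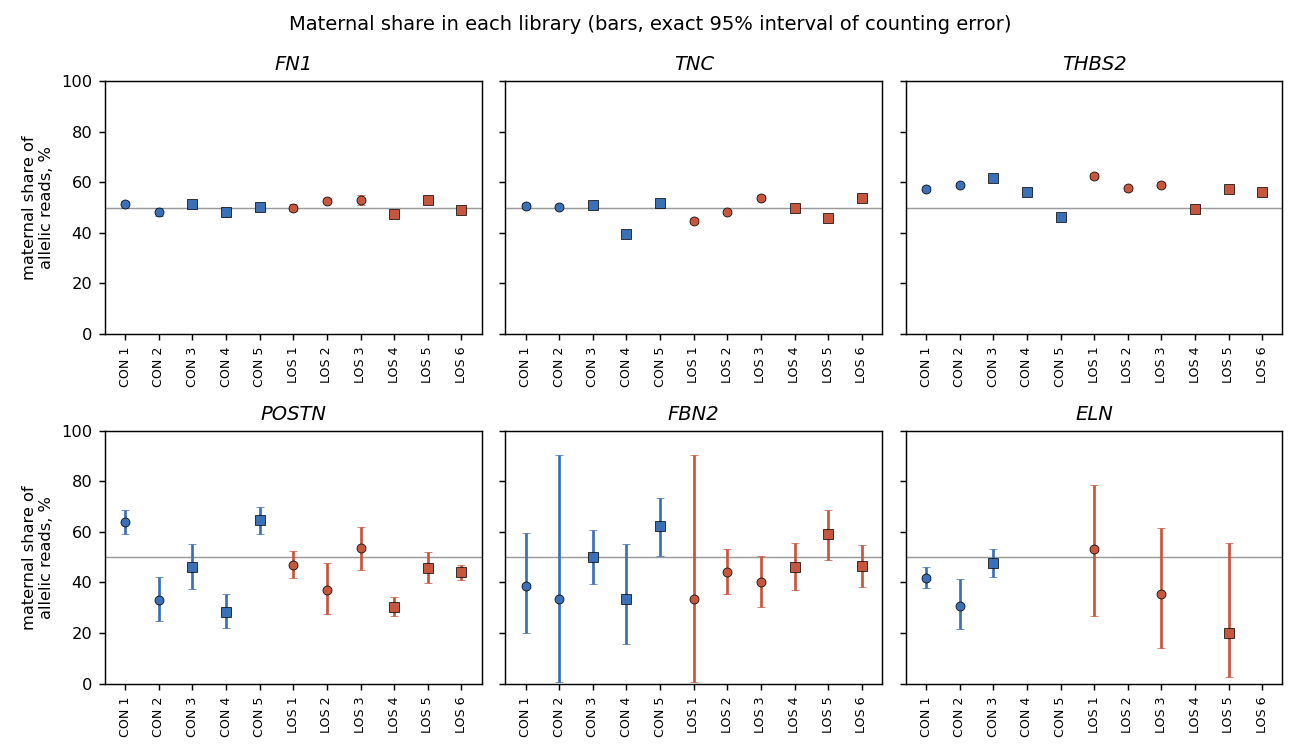
Maternal share of allelic reads (percent) of 6 members in each library, with controls in blue, LOS in red, circles for females, squares for males and exact 95% intervals of counting error. The line marks 50%, and a library without a point had 0 allelic reads. THBS2 lies above the line in 9 of 11 libraries, and TNC of control 4 lies at 39.6%.

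The difference in share between LOS and control, as log2 of maternal over paternal reads, was largest in POSTN, at -0.43 ± 0.316 (SE). It was 0.06 for FN1, 0.04 for TNC, 0.05 for THBS2, -0.13 for FBN2 and -0.18 for ELN. All 6 had an adjusted p of 0.999 in edgeR, which called 0 of 5700 genes (0%) and found 246 (4.32%) at an unadjusted p under 0.05. For single alleles, the total counts were multiplied by the allelic share, so their changes are not a measurement apart from the total. FBN2 differed by 1.21 ± 0.524 (SE) on the maternal and by 1.21 ± 0.368 (SE) on the paternal allele, against 1.2 in total counts. Its shares in control 2 and LOS 1 came from 3 allelic reads each. POSTN differed by 0.11 ± 0.596 (SE) on the maternal and by 0.84 ± 0.307 (SE) on the paternal one. The smallest adjusted p of an allele of a member was 0.935, and edgeR called 0 maternal and 0 paternal alleles (0% each). Among the alleles of members, both of FBN2 and the paternal one of POSTN had an unadjusted edgeR p under 0.05. Over all genes, 196 of 4247 maternal (4.62%) and 188 of 4250 paternal alleles (4.42%) did.

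Other genes listed under elastic fibers and microfibrils were split between directions. Of 22 listed, 21 were tested, of which 10 were higher in LOS and 11 lower. Their median log2 fold change was -0.01, and edgeR called 0. LTBP4, which helps to deposit elastin on microfibrils, had 168 CPM ± 10.9 (SD, n = 5) in controls and 209 CPM ± 27.6 (SD, n = 6) in LOS. Every LOS library was above every control for LTBP4, against 0.23% of all genes whose groups did not overlap in either direction. Its log2 fold change was 0.32 ± 0.101 (SE; edgeR adjusted p = 0.932). FBLN5, another elastin assembly protein, was at 0.34 ± 0.136 (SE), LTBP2 at 0.57 and the lysyl oxidase relative LOXL2 at 0.35. LOXL3 was at -0.74, the microfibril protein MFAP5 at -0.89, ADAMTSL4 at -0.50 and LTBP3 at -0.23. LTBP4 and FBLN5, 2 of the 21 tested, had an unadjusted p under 0.05 in edgeR, against 4.44% of all genes.

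Of the other matricellular and adhesive glycoproteins, 23 of 30 were tested, with 9 higher and 14 lower, a median of -0.145 and 0 called. CYR61, also named CCN1, averaged 632 CPM ± 137 (SD, n = 5) in controls and 1001 CPM ± 337 (SD, n = 6) in LOS, a log2 difference of 0.65 ± 0.24 (SE). Its relative CTGF, also named CCN2, was at 0.59 ± 0.378 (SE), SMOC1 at 1.29 ± 0.812 (SE) and FNDC1 at 0.61. On the lower side MATN2, a matrilin, was at -1.85 ± 0.689 (SE). BMP1, the procollagen proteinase that also processes the LOX precursor, was at -0.19 ± 0.0767 (SE), ECM2 at -0.58 and the tenascin TNXB at -1.23 ± 0.506 (SE). TNXB averaged 343 CPM ± 182 (SD, n = 5) in controls and 182 CPM ± 136 (SD, n = 6) in LOS. CYR61 alone of the higher genes, and 5 of the lower ones, had an unadjusted p under 0.05, against 4.44% of all genes tested, and all of the named genes had an adjusted p of 0.932 in edgeR.

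Of 16 genes listed under receptors and clearance of the members, 11 were higher in LOS, with a median log2 fold change of 0.135 and 0 called. Over all genes tested, 49.8% were higher. ITGAV and ITGB5, subunits of integrins that bind matrix glycoproteins, were at 0.39 ± 0.186 (SE) and 0.40 ± 0.191 (SE), followed by ITGA4 at 0.85 and SDC4 at 0.40. STAB1, a scavenger receptor that takes up SPARC, was at -0.87, from low means of 4.79 CPM in controls and 2.81 CPM in LOS. The thrombospondin receptor CD47 was at -0.22, with all 6 LOS libraries below the control median. ITGB8 at -0.10 and CD36 at -0.13 were nearer 0, and their control means were also low, at 4.86 and 1.36 CPM. Of 12 TGF-beta ligands, receptors and related genes, 7 were higher and 5 lower with a median of 0.09, and 0 were called. The receptor TGFBR1 was at 0.47 ± 0.151 (SE) and the ligand TGFB1 at 0.39 ± 0.169 (SE), both with an unadjusted p under 0.05 and an edgeR adjusted p = 0.932. They were the 2 of these 12 with such an unadjusted p, against 4.44% of all genes. SMAD4, which carries the signal to the nucleus, was at 0.14. TGFB3 was at -0.60, TGFBR2 at -0.50, TGFBR3 at -0.09 and TGFB2 at -0.11.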

How the data were processed

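Total RNA depleted of ribosomal RNA was sequenced as paired reads of 150 bases; per the labels' protocols, 33 M pairs were planned for each library. Build ARS-UCD1.2 and edgeR 3.36.0, Picard 2.22.4, GATK, Salmon 0.11.1, Cufflinks 2.2.1, StringTie 2.1.4, SAMtools 1.8, HISAT2 2.1.0 and FastQC 0.11.7 are listed in the submitters' processing notes. What each tool did, whether strand was used and how allelic sites were chosen was not given in the sources used here. The authors deposited expected counts (not normalised) for 21862 annotated genes and 5536 assembled loci. They also deposited whole allelic read counts for 9716 genes, and expected counts multiplied by the allelic share for 4347 genes.

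Expected counts were rounded and tested with edgeR 4.0.16 (R 4.3.3). The steps were scaling by the trimmed mean of M values (TMM), filterByExpr, quasi-likelihood tests of a model holding sex and group, and Benjamini-Hochberg adjustment over all genes at 0.05. CPM are on TMM library sizes, with a prior count of 2 for log2 CPM. The allelic model had a term per library, the allele and allele by group, for autosomal genes with a mean of 20 allelic reads and 10 reads in 3 libraries of each group. Single alleles were tested with the library sizes of the total counts. Correlations used 100000 permutations. No transcript length was used, so counts do not compare the levels of different genes. The shares of FBN2 and THBS2 in the counts of their pairs serve only to compare libraries. Alternatives were DESeq2 1.42.0, limma 3.58.1 (voom), other scalings and filters, no sex term, and each library left out. With 1 culture per fetus, p-values measure the spread between fetuses and cultures together. Simulated counts with known changes were also tested: for the comparison of LOS with control, edgeR recovered 10.3% of genes changed 1.5-fold, 63.9% at 2-fold and 85% at 4-fold, over 16606 genes. The changed genes were drawn at random, whereas all 10 members had a spread above the median of all genes. These rates therefore do not describe the members, for which recovery was not measured.

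The members and gene lists were chosen with earlier results of these data known. Named are all members, from each list up to 4 tested genes per direction with the smallest unadjusted p, and for each member the 3 genes most like it; 1 gene that the rule names is not reported here. CYR61 and CTGF were matched as older symbols of CCN1 and CCN2.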

Additional observations from a re-analysis of the deposited data

Results flagged for a closer look

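In 6 of 36 groups of samples that were checked, the highest or lowest sample lay farther from the nearest other than Dixon's 95% limit allows. The limit allows about 1 in 20 groups for independent, normally distributed values. The levels were checked as CPM and not on the log2 scale, and the groups share libraries. That rate therefore does not hold here, and 6 of 36 is not a measure against chance. LOS 1 accounts for 4 of the 6. Its FBN1 level was 3786 CPM, with the next LOS library at 2177 CPM. Its ELN level was 136 CPM, with the next at 48.5 CPM. In log2 CPM, ELN was 7.08 in LOS 1, 5.605 in the next and 1.65 in the lowest LOS library, so it stood less apart. The FBN2 level of LOS 1 was the lowest of LOS, at 11.6 CPM against 41.1 CPM in the next. The summed proliferation genes of LOS 1 stood at 474 CPM, with the next LOS library at 239 CPM. POSTN in LOS 6, a male, stood at 856 CPM, with the next at 431 CPM. The maternal share of TNC in control 4 was 39.6%, with the nearest control at 50.3%.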

How the results depend on the processing

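The call of 0 genes for LOS against control held under each alternative except DESeq2, which called 5. DESeq2 also called 22 genes by sex, where edgeR called 8, and 6 for the interaction, where edgeR called 0. Of 320 values recomputed under settings that kept all libraries, 314 were counted as unchanged. For single genes and pairs this means no reversed direction and the same side of the threshold. For numbers of called genes or pairs it means a similar number. THBS1 took the opposite sign without the sex term, at -0.044. ELN's paternal lean had an adjusted p of 0.047 in edgeR with a mean of 50 allelic reads. With group means subtracted, 8 pairs of members correlated. Adding the replicate number as a block gave 0 called genes, with the largest moves in FN1, to 0.87, and THBS1, to 0.55. SPARC took the opposite sign, at 0.15, and FBN2 was at 1.39 and ELN at -1.33. Same-numbered control and LOS libraries deviated together with correlations of -0.166 to 0.257, and not every control correlated best with its own number, so the numbers were not taken to pair the samples.

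With 1 library left out at a time, the count for LOS against control stayed at 0, the count by sex was 3 to 7 (below 6 without controls 1, 2, 3 or 5, or LOS 2, 4, 5 or 6), the maternal share count 0 to 1 (1 without control 2, LOS 1 or LOS 2) and the number of correlated pairs 2 to 8. Of 725 values, 49 changed sign. The LOS difference ranged from -0.19 to 0.26 for THBS1 and from -0.11 to 0.078 for SPARC. It ranged from 0.13 (without control 2) to 0.62 (without control 5) for FN1, 0.18 (without LOS 6) to 0.59 (without control 5) for TNC, 0.17 (without control 4) to 0.38 (without control 3) for THBS2, -0.49 (without control 2) to -0.13 (without control 5) for FBN1 and -0.58 (without control 2) to -0.16 (without LOS 6) for LOX. The sex difference ranged from -0.12 to 0.10 for THBS2, -0.047 to 0.17 for SPARC, -0.30 to 0.18 for FBN1 and -0.29 to 0.13 for LOX. The interaction ranged from -0.55 to 0.27 for TNC, -1.37 to 0.60 for POSTN, -1.50 to 0.028 for THBS1 (above 0 without control 2) and -0.18 to 0.31 for THBS2, and kept its sign from -1.57 to -0.67 for LOX and -1.44 to -0.55 for FBN1. The maternal allele of POSTN ranged from -0.29 to 0.66, and the difference in share from -0.088 to 0.094 for TNC, -0.10 to 0.14 for THBS2 and -0.30 to 0.22 for FBN2. FBN2 kept its direction in all 11 refits of the LOS comparison (0.94 to 1.41, adjusted p 0.349 to 1) and ELN too (-2.22 to -1.14, adjusted p 0.365 to 1). The ELN share could be fitted in only some refits, because too few libraries had reads. The number of fetuses, and for FBN2 and ELN the allelic reads, limit these comparisons.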

Other observations

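The share of a member's total counts that carried an allele assignment differed between members and between libraries. It was 5.51% to 12.2% for FN1, 15% to 28.3% for TNC, 18.3% to 29.0% for THBS2 and 1.85% to 13.1% for POSTN. For FBN2 it was 11.3% to 19.4% in 9 libraries, and 2.44% in control 2 and 2.13% in LOS 1, which had the fewest FBN2 allelic reads. For ELN it was 25.3%, 13.1% and 29.1% in controls 1 to 3, and 0.908%, 2.64% and 1.77% in LOS 1, LOS 3 and LOS 5. LOS 1 and control 4 had similar ELN levels, at 136 and 127 CPM, with 15 and 0 allelic reads.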
